A study of Mus musculus with 6 samples.

Results

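The genes described here encode the proteins of the mitochondrial ribosome. They were taken as every listed gene named Mrpl or Mrps, followed by a number and at most 1 letter, which gave 76 of the 23284 genes listed. Of these, 47 carry the name of the large subunit (Mrpl) and 29 that of the small subunit (Mrps). RNA-seq was made from the heart ventricle of C57BL/6 embryos at E9.5, with 3 embryos labelled WT (wild type) and 3 labelled KD (genotype Tbx5ua -/-). All 6 embryos were tetraploid chimeras, in which the embryo proper grows from injected ES cells while the tetraploid host cells form mainly extraembryonic tissue. Tbx5ua is a long non-coding RNA that starts at a Tbx5 promoter and runs away from it, and the KD embryos carry polyadenylation signals inserted into each of its alleles, which end transcription early. The ES cells were clonal lines, and the labels do not say which line each embryo came from. Tbx5ua is not analysed here, so the groups' labels were not checked by the targeted gene.

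Mitochondria keep a small genome, and the proteins it encodes are core subunits of the respiratory chain and of ATP synthase. These are made inside the organelle by a ribosome of its own. Its rRNAs come from mitochondrial DNA, while all of its proteins are encoded in the nucleus, made in the cytosol and imported. The small subunit holds the decoding centre and the large subunit the peptidyl transferase centre and the exit tunnel, which faces the inner membrane. Many of the proteins belong to families shared with bacterial ribosomes and others are found in mitochondria alone. The heart depends on this machinery, because most of its ATP is made by oxidative phosphorylation once the embryonic heart matures.

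The deposited table gives each gene 1 FPKM value per group, made from the 3 embryos jointly. FPKM counts fragments scaled to transcript length and to the library's mapped total, so that levels can be compared between genes. Without values of single embryos there was no spread between embryos to hold a difference against, and no test was made. Differences are given as log2((KD + 1)/(WT + 1)), called the log2 difference below, and a gene counts as past 1.2-fold or 1.1-fold where this value is at least that fold in size. The members are set beside the 11366 genes with a mean of the 2 group values of at least 1 FPKM, and beside the 5046 of these whose mean lay in the range of the members, from 11.6 to 609 FPKM. All 76 members passed that filter. The sum over all listed genes was 859452 FPKM in WT against 877889 FPKM in KD, and the numbers of mapped reads are unknown. Cardiomyocyte markers were high in both groups, and the 8 genes summed to 30582 FPKM in WT against 31528 FPKM in KD, 3 of them being higher in KD. Among them Myl7 had 13643 and 12907 FPKM (WT and KD) and Myl2 had 10924 and 12702 FPKM. Of the markers of other cell types, all 6 epicardial genes were higher in KD, and their summed level was 47.0 FPKM in WT against 95.9 FPKM in KD. The endocardial list summed to 95.9 and 98.5 FPKM and 4 primitive erythroid genes to 11428 and 11505 FPKM, while the neural and macrophage lists each summed to less than 1 FPKM in each group. The yolk sac and hepatic list summed to 0.607 FPKM in WT against 1.37 FPKM in KD, and 3 of its 4 genes were higher. The part of the epicardial genes in the values below was not tested.

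No member differed by as much as 1.2-fold between WT and KD ventricles. The count was 0 of 47 in the large subunit and 0 of 29 in the small subunit, against 21.0% of all genes at a mean of at least 1 FPKM (11.6% higher and 9.38% lower in KD) and 13.2% of genes in the members' level range. The log2 differences of the members ran from -0.18 for Mrpl9 to 0.25 for Mrpl54. Past 1.1-fold lay 12 large subunit members, 8 higher and 4 lower in KD, and 3 small subunit members, all higher. These are 25.5% and 10.3% of the subunits, where 48.5% of all genes (24.9% higher and 23.6% lower) and 40.2% of genes in the level range (19.6% higher and 20.5% lower) were past 1.1-fold. In 43 of the 76 members the KD value was within 5% of the WT value, and in 61 within 10%. The median size of the difference, leaving out its sign, was 0.06 in the large and 0.05 in the small subunit, against 0.11 in the level range. With 1 value per group these counts describe the groups as measured once. The level-range genes lay lower in that range than the members, with a median of 32.1 FPKM in WT (quartiles 18.4 and 71.5 FPKM). The members had a median of 94.7 FPKM (quartiles 66.0 and 171 FPKM), and all genes at a mean of at least 1 FPKM one of 10.0 FPKM. The part of level in the shares above was not tested.

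**Figure D1:**
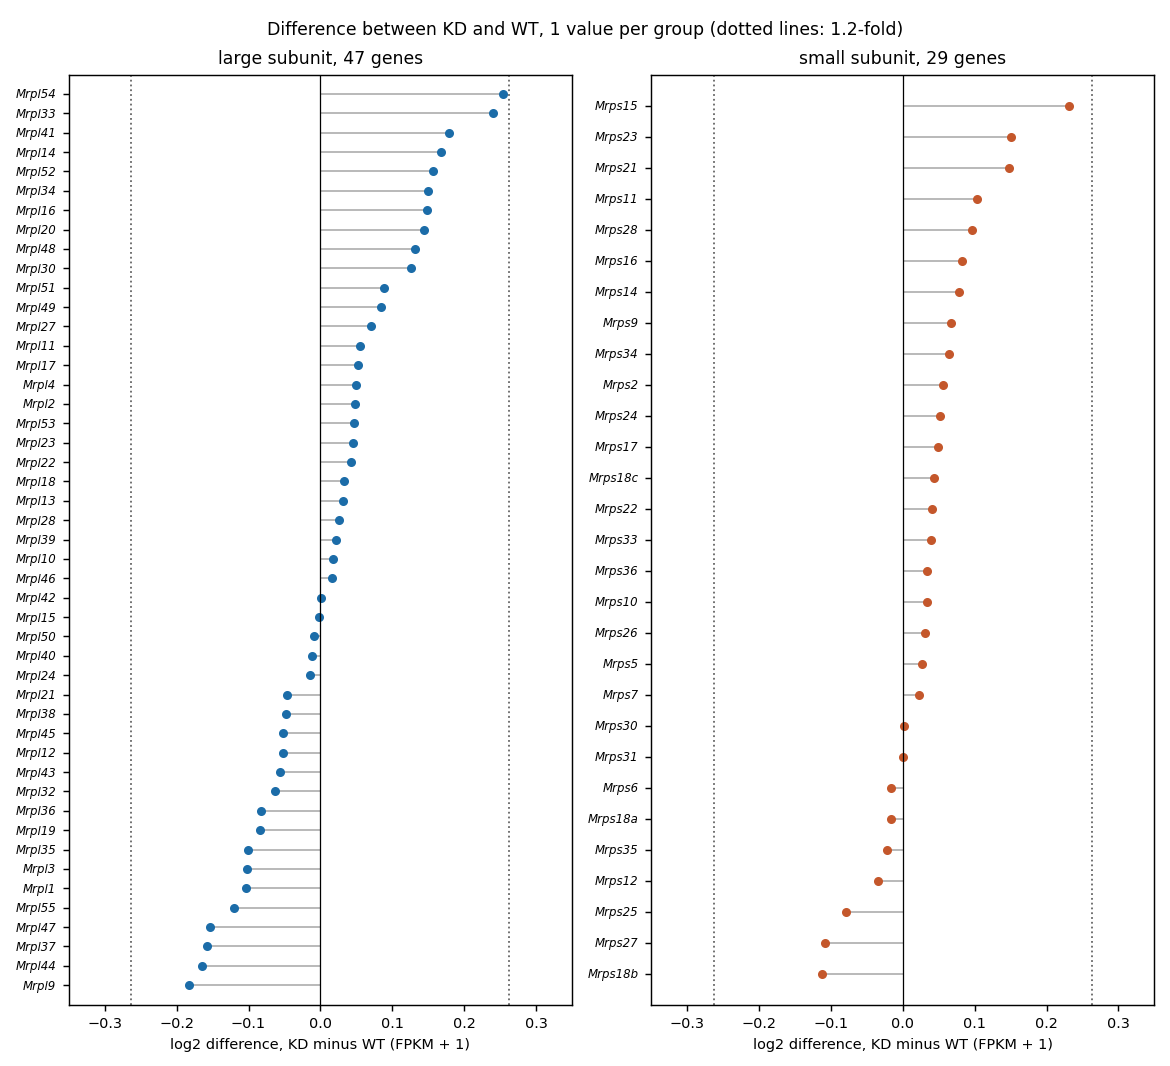
Log2 difference of each member, KD minus WT, on the log2(FPKM + 1) scale, with the large subunit on the left (47 genes) and the small subunit on the right (29 genes). Dotted lines mark 1.2-fold, and all 76 points lie between them, from Mrpl9 at -0.18 to Mrpl54 at 0.25.

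The subunits had similar medians. The large subunit had a median log2 difference of 0.02 (quartiles -0.05 and 0.08), with 27 members higher and 20 lower in KD, but when both groups were rescaled to the same FPKM sum its median turned to -0.0089, with 22 higher and 25 lower. The small subunit had a median of 0.04 (quartiles 0.00071 and 0.07), with 22 members higher and 7 lower, and with the rescaling a median of 0.0087, with 18 higher and 11 lower. Past 1.1-fold the rescaling left 9 large subunit members, 4 higher and 5 lower, and 3 small subunit members, 1 higher and 2 lower, so the balance of directions rests on the scaling. With the same rescaling 41.0% of genes in the level range were past 1.1-fold, 15.2% higher and 25.8% lower, so their balance moved the same way. The genes in the level range had a median of -0.0054, and of -0.04 with the rescaling. Summed over its members, the large subunit held 6930 FPKM in WT against 7214 FPKM in KD, a ratio of 1.04, and the small subunit 3620 and 3776 FPKM, also a ratio of 1.04. Together the members took 1.23% of the FPKM sum in WT and 1.25% in KD.

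Levels differed far more between members than between groups. In WT the large subunit ran from 15.2 FPKM (Mrpl17) to 576 FPKM (Mrpl52), 37.9-fold, with a median of 96.3 FPKM and quartiles of 56.6 and 203 FPKM. The small subunit ran from 11.9 FPKM (Mrps25) to 545 FPKM (Mrps21), 45.8-fold, with a median of 87.0 FPKM and quartiles of 71.0 and 157 FPKM. In KD the medians were 96.0 and 92.5 FPKM. The order of the members hardly moved between the groups, with a Spearman correlation of the WT and KD levels of 0.994 across the 76 members. The 2 values share the gene models and lengths of 1 table, and this is a description across genes.

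**Figure D2:**
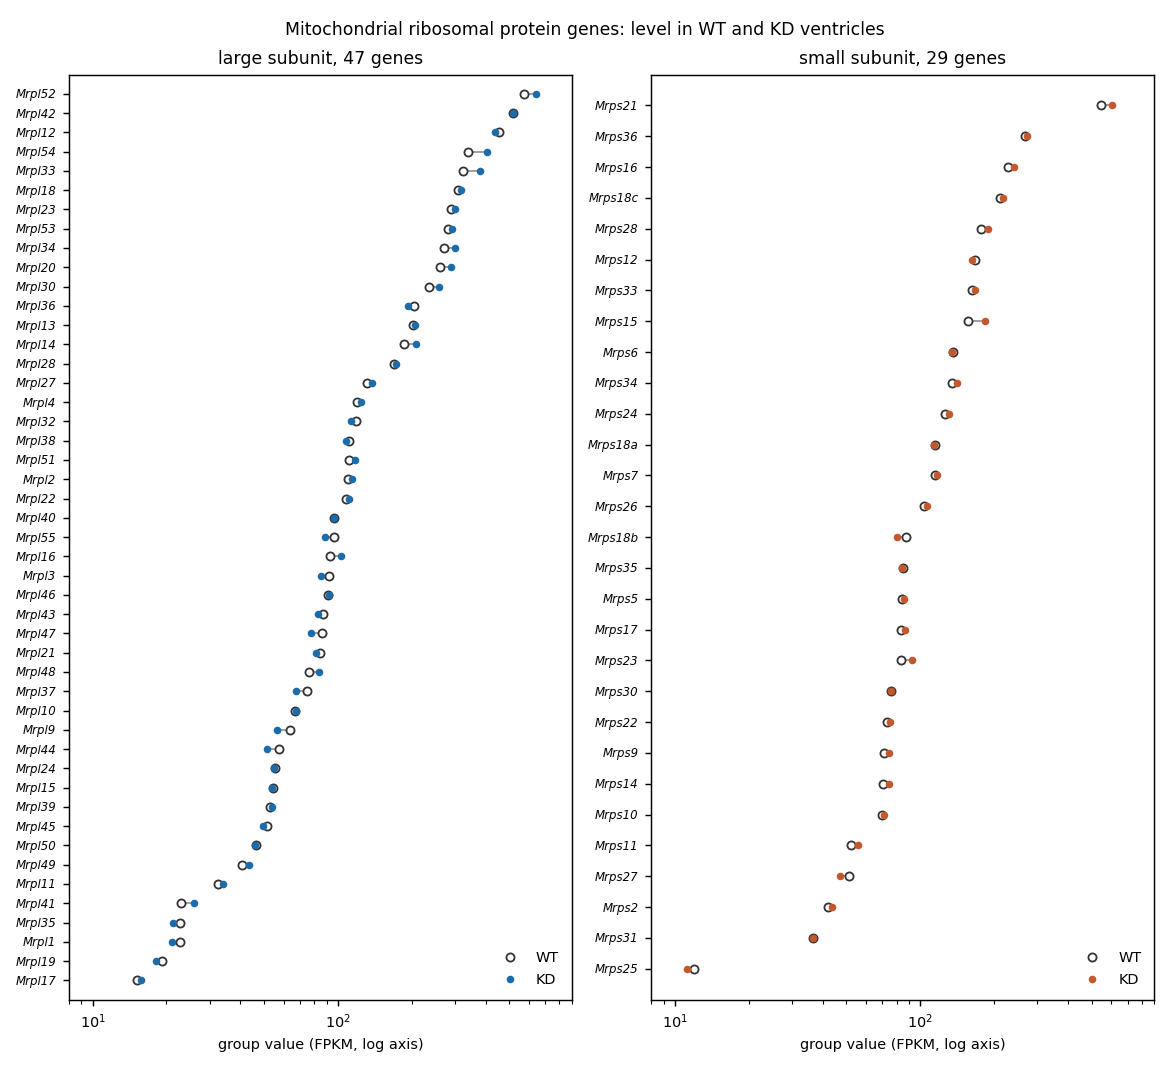
FPKM of each member in WT (open circles) and KD (filled circles), 1 value per group, on a log axis and ordered by the WT level, with large subunit genes on the left and small subunit genes on the right. The members spread from 11.9 to 576 FPKM in WT, and the circles of a gene lie close together or overlap.

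The 5 highest large subunit members in WT were Mrpl52, Mrpl42, Mrpl12, Mrpl54 and Mrpl33. Mrpl52, a protein of the mitochondrial large subunit with no bacterial counterpart, lies on chromosome 14 from 54426909 to 54429750 (build GRCm38, as all positions here) and had 576 FPKM in WT against 642 FPKM in KD. Mrpl42 had 518.8 FPKM in WT against 519 FPKM in KD, the smallest difference of the large subunit. Mrpl12, on chromosome 11 from 120484669 to 120488754, belongs to the L7/L12 stalk, which bacterial and mitochondrial ribosomes use to recruit translation factors and which they carry in several copies. It had 454 FPKM in WT against 438 FPKM in KD, a log2 difference of -0.05. The stalk base proteins Mrpl10 (66.7 and 67.5 FPKM in WT and KD) and Mrpl11 (32.5 and 33.9 FPKM) were at a lower level than Mrpl12 in both groups. In the small subunit the highest in WT were Mrps21 (545 and 604 FPKM), Mrps36 (266 and 272 FPKM), Mrps16 (229 and 242 FPKM), Mrps18c (212 and 218 FPKM) and Mrps28 (177 and 189 FPKM). Mrps36 keeps a ribosomal name, but its product is now placed in the alpha-ketoglutarate dehydrogenase complex.

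The lowest members in WT were also low in KD. In the large subunit these were Mrpl17 (15.2 FPKM in WT against 15.8 FPKM in KD), Mrpl19 (19.3 and 18.1 FPKM) and Mrpl1 (22.7 and 21.0 FPKM). In the small subunit they were Mrps25 (11.9 and 11.2 FPKM), Mrps31 (36.6 FPKM in both groups) and Mrps2 (41.9 and 43.6 FPKM). The loci of Mrpl19 and Mrps25 in the table overlap those of AW146020 and Nr2c2, so reads could be shared there. Such an overlap was found for 9 of the 76 members, among them also Mrpl41, Mrpl48, Mrpl49, Mrps6 and Mrps27. The other 67 members had a median log2 difference of 0.03 and again none past 1.2-fold. Mrpl23, Mrpl48 and Mrps36 have annotated pseudogenes named after them, which could take or give reads.

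The members named in this paragraph were chosen after their values were seen, as those with the largest differences. Mrpl54, on chromosome 10 from 81264722 to 81266926, stood at 338 FPKM in WT against 404 FPKM in KD, 1.19-fold higher. Mrpl33, whose bacterial homologue is a small protein near the exit site of the large subunit, had 323 FPKM in WT against 381 FPKM in KD, 1.18-fold higher. Mrps15, the homologue of a bacterial protein that binds the platform of the small subunit early in assembly, had 157 FPKM in WT against 184 FPKM in KD, 1.18-fold higher, and lies on chromosome 4 from 126046928 to 126055536. All 3 were higher in KD by less than 1.2-fold. The next in order were Mrpl41 (22.8 and 26.0 FPKM), Mrpl14 (186 and 209 FPKM), Mrpl52, Mrps23 (83.3 and 92.5 FPKM), Mrpl34 (272 and 301 FPKM) and Mrps21. On the lower side, Mrpl9, on chromosome 3 from 94443336 to 94448708, stood at 63.9 FPKM in WT against 56.2 FPKM in KD. Mrpl44, an RNase III-like protein of the mitochondrial large subunit, had 57.6 and 51.3 FPKM, and Mrpl37 had 75.1 and 67.2 FPKM. Mrpl47, of the family of the exit tunnel protein L29, had 86.3 and 77.4 FPKM. In the small subunit the largest differences on this side were those of Mrps18b (87.0 and 80.4 FPKM) and Mrps27 (51.0 and 47.2 FPKM), the latter a pentatricopeptide repeat protein.

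Members of bacterial families and members found in mitochondria alone are set side by side here. The 48 members of bacterial families had a median log2 difference of 0.04, a median level of 113 FPKM in WT, and 9 members past 1.1-fold. The 28 mitochondrial members had a median of 0.02, a median level of 84.2 FPKM in WT, and 6 members past 1.1-fold. These are 18.8% and 21.4%, where 48.5% of all genes and 40.2% of genes in the level range were past 1.1-fold. With the rescaling the medians were 0.0077 and -0.01, a change of sign in the mitochondrial class. Neither class had a member past 1.2-fold. Mrps18a, Mrps18b and Mrps18c are paralogues of the bacterial small subunit protein S18. Their levels were 115, 87.0 and 212 FPKM in WT and 114, 80.4 and 218 FPKM in KD, so the order of the 3 was the same in both groups. In the assembled particle Mrps18a and Mrps30 sit in the large subunit in spite of their names. Counted by place, with these moved and Mrps36 left out, the medians were 0.02 for 49 large subunit members (-0.01 with the rescaling) and 0.04 for 26 small subunit members (0.01 with the rescaling).

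The name rule leaves out ribosomal proteins that carry other names, and 7 of these were taken as a list of their own. Mrp63, a large subunit protein on chromosome 14, had 20.6 FPKM in WT against 25.4 FPKM in KD, 1.23-fold higher, and was the only one of the 7 past 1.2-fold, or 14.3% against the 21.0% of all genes. With both groups rescaled to the same FPKM sum none was. The highest was Chchd1, a small subunit protein, with 403 FPKM in WT against 411 FPKM in KD. Ptcd3, a pentatricopeptide repeat protein of the small subunit, had 46.7 and 42.1 FPKM, and Dap3, a GTP-binding protein of the small subunit, 24.0 and 25.8 FPKM. Ict1, a peptidyl-tRNA hydrolase built into the large subunit, had 138 and 148 FPKM. The median log2 difference of the 7 was 0.10. Past 1.1-fold lay 4 of them, 3 higher and 1 lower in KD, or 57.1% against 48.5% of all genes.

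For assembly and rRNA modification 22 genes were measured, with a median of 16.0 FPKM in WT. Of these 4 were past 1.2-fold, 2 higher and 2 lower in KD, which is 18.2% and close to the 21.0% of all genes. Higher were Nsun4, an rRNA methyltransferase (5.61 and 7.41 FPKM), and Mpv17l2 (27.0 and 34.0 FPKM). Lower were Rnmtl1, also an rRNA methyltransferase (16.3 and 12.9 FPKM), and the GTPase gene Mtg1 (17.6 and 14.2 FPKM). Rbfa, with the top level of these genes, had 41.0 and 42.8 FPKM. The median log2 difference of the list was -0.06, with 8 genes higher and 14 lower.

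Of 14 mitochondrial translation factors 0 were past 1.2-fold, against 21.0% of all genes. With the rescaling to the same FPKM sum 2 were, or 14.3% against 21.4%. Their median log2 difference was -0.06, with 4 genes higher and 10 lower in KD. Tufm, the elongation factor that brings aminoacyl-tRNA and the highest of the list, had 133 FPKM in WT against 124 FPKM in KD. Gfm1, the translocation factor, had 60.8 and 51.0 FPKM, and Lrpprc, an RNA-binding protein that stabilises mitochondrial mRNAs, 27.5 and 25.5 FPKM. Of 17 mitochondrial aminoacyl-tRNA synthetases 2 were past 1.2-fold in opposite directions, or 11.8% against the 21.0% of all genes, and with the rescaling 3 were. Lars2, the leucine enzyme, had 1088 FPKM in WT against 1544 FPKM in KD, 1.42-fold higher. It stood far above the median of its list, 17.4 FPKM in WT, and above the next highest, Rars2, at 37.1 FPKM. Whether all reads counted for Lars2 come from its mRNA was not checked. Nars2, the asparagine enzyme, had 6.93 and 5.57 FPKM.

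For transcription and replication of mitochondrial DNA 7 genes were measured, and 6 of them were lower in KD, with a median log2 difference of -0.11. Ssbp1, the single-strand DNA binding protein and the highest of the list, had 76.0 FPKM in WT against 62.1 FPKM in KD and was the only one past 1.2-fold, or 14.3% against the 21.0% of all genes. With the rescaling 2 were, or 28.6% against 21.4%. Tfam, which packages mitochondrial DNA and activates its promoters, had 21.5 and 17.9 FPKM, and Polrmt, the mitochondrial RNA polymerase, 6.60 and 5.67 FPKM. Of 8 regulators of mitochondrial biogenesis 1 was past 1.2-fold, or 12.5% against the same 21.0%. It was the coactivator gene Pprc1, with 13.2 FPKM in WT against 10.4 FPKM in KD. The highest of these 8 was Gabpb1, with 24.4 and 24.3 FPKM. Nrf1 had 17.0 and 18.5 FPKM, Ppargc1a 7.28 and 7.79 FPKM, Gabpa 13.4 and 13.0 FPKM, and Yy1 10.8 and 10.5 FPKM. The proteins encoded by mitochondrial DNA itself are not analysed here.

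Nuclear subunits of the respiratory chain and ATP synthase also had no gene past 1.2-fold, against 21.0% of all genes. They numbered 75, with a median level of 814 FPKM in WT, and the highest was Cox8a (2862 and 3109 FPKM in WT and KD). Their median log2 difference was 0.07, with 56 genes higher and 19 lower, and 19 genes, or 25.3%, were past 1.1-fold, against 48.5% of all genes. With the rescaling the median was 0.04 and 10 genes were past 1.1-fold, 8 higher and 2 lower, which is 13.3% against 48.7% of all genes (21.1% higher and 27.6% lower). The cytosolic ribosomal proteins had a median level of 1690 FPKM in WT and 4 of 80 genes past 1.2-fold, or 5% against the 21.0% of all genes, and with the rescaling 2 were. Their median log2 difference was 0.11, with 74 genes higher and 6 lower in KD. The highest, Rpl41, had 6963 FPKM in WT against 7756 FPKM in KD. Of the 4 genes past 1.2-fold 3 were higher in KD, among them Rps20 (3036 and 3751 FPKM) and Rpl35 (3646 and 4443 FPKM). Rps27 was lower (1522 and 1214 FPKM). The interquartile range of the differences was 0.07 in the small and 0.13 in the large subunit of the mitochondrial ribosome, 0.13 for the respiratory chain, 0.11 for the cytosolic ribosome and 0.21 for genes in the members' level range. No test compared these lists, and the level-range genes lay at lower levels than the members.

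**Figure D3:**
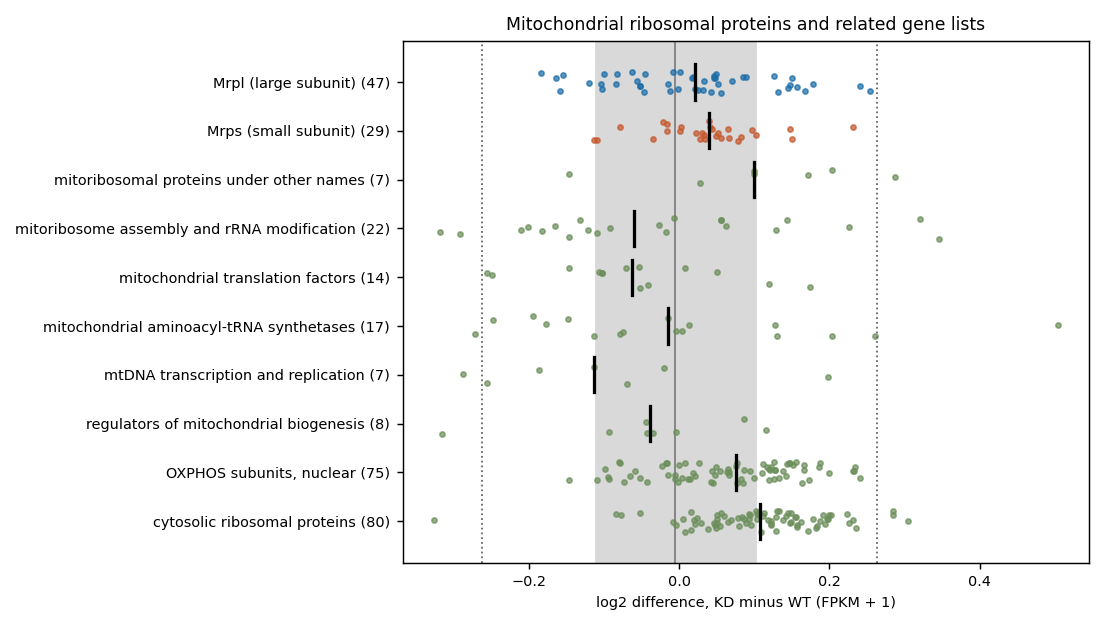
Log2 difference, KD minus WT, of the members and of 8 related lists on the log2(FPKM + 1) scale, with the number of genes in brackets, 1 point per gene and a black bar at each list's median. The grey band spans the quartiles of the genes in the members' level range and the dotted lines mark 1.2-fold, past which no Mrpl or Mrps gene lies.

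Transcript length moved with the differences. The lengths of the members, as the median of the basic protein-coding transcripts of each gene in GENCODE, ran from 440.5 to 6073 bases with a median of 1221 bases. In the shortest of 3 length classes, up to 918 bases, 20 of 25 members were higher in KD and the median log2 difference was 0.05. In the middle class 16 of 25 were higher, with a median of 0.03. In the longest class, from 1537.5 bases, 13 of 26 were higher, with a median of -3.9e-05. Of the 11 members higher by more than 1.1-fold, 8 were in the shortest class, 3 in the middle and 0 in the longest. The 8 are 32% of the shortest class, close to the 31.1% of level-range genes in that class, while the shares of level-range genes in the middle and longest classes were 25.4% and 15.4%.

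The same order of the length classes was seen in other genes. Among genes in the members' level range, the medians in the same length classes were 0.06 (424 genes), 0.03 (849 genes) and -0.03 (3156 genes). The Spearman correlation of length with the log2 difference was -0.43 across the 76 members, -0.54 in the large and -0.22 in the small subunit, against -0.20 across 4429 genes of the level range. Length also moved with the level, with a correlation of -0.70 across the members. These are descriptions across genes of 1 table, which share libraries and gene models, and the part of length in the differences was not tested. Mrpl54, Mrpl33 and Mrpl52, with 604, 478 and 440.5 bases, are among the short transcripts, while Mrpl9, with 1634.5 bases, is in the longest class. Mrps15, with 937 bases, and the lower Mrpl44 and Mrpl37, with 1424 and 1498 bases, are in the middle class. Of the 4 members lower by more than 1.1-fold, 0 were in the shortest class, 2 in the middle and 2 in the longest. Among level-range genes these were 35 of 424, 114 of 849 and 728 of 3156.

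**Figure D4:**
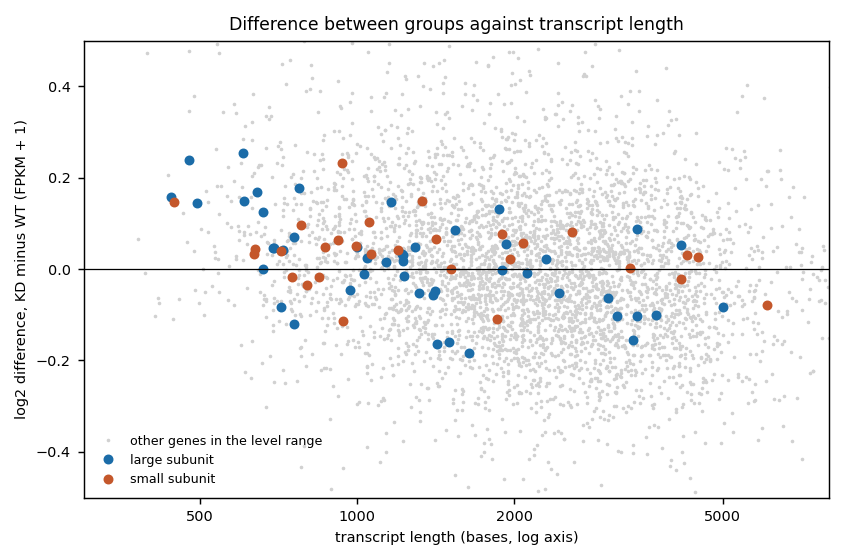
Log2 difference, KD minus WT, against transcript length in bases (log axis), with the members coloured by subunit and the other genes of the level range in grey. Members of up to 918 bases lie mostly above 0 (20 of 25) and members of at least 1537.5 bases are evenly split (13 of 26), and a few grey genes lie outside the plotted range.

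The members lie on 17 chromosomes, with 10 on chromosome 11 and 8 on chromosome 17, and 0 on the sex chromosomes. Because Tbx5ua belongs to the transcripts that start beside a coding gene on the opposite strand, the same arrangement was counted here. In GENCODE 36 of the 76 members, 47.4%, had an opposite-strand gene that started within 1000 bases of their own start, against 25.4% of 9896 genes at a mean of at least 1 FPKM, 23.1% of cytosolic ribosomal protein genes and 46.7% of respiratory chain genes. Only the nearest such neighbour of each gene was kept. It was coding for 32 members, 42.1%, against 1673 of the 9896 genes, 16.9%. It was non-coding, the arrangement of Tbx5ua, for 4 of the 76 members, against 842 of the 9896 genes. A non-coding neighbour farther away than a coding one is therefore not counted. No test was made of these shares.

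Of 30 members whose neighbour had a mean of at least 1 FPKM, 4 neighbours were past 1.2-fold, which is 13.3% and below the 21.0% of all genes, while 0 of the members were. The 4 were Gga3 beside Mrps7 (6.96 FPKM in WT against 5.21 FPKM in KD), Pnpla7 beside Mrpl41 (1.40 and 0.885 FPKM), Zfp661 beside Mrps5 (1.77 and 1.18 FPKM) and the non-coding 2610507I01Rik beside Mrpl55 (1.96 and 2.98 FPKM), all at low levels. Mrps7 itself had 115 and 117 FPKM and Mrps5 83.9 and 85.5 FPKM. Some pairs link the mitochondrial ribosome to other parts of the organelle. Mrps12, of the decoding centre, starts beside Sars2, the mitochondrial serine tRNA synthetase, with 166 and 162 FPKM for Mrps12 and 24.7 and 21.4 FPKM for Sars2. Mrpl36 starts beside Ndufs6 and Mrpl47 beside Ndufb5, both subunits of complex I. Smart-Seq2 libraries do not keep the strand of the RNA, so where neighbours overlap their reads cannot be told apart.

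**Figure D5:**
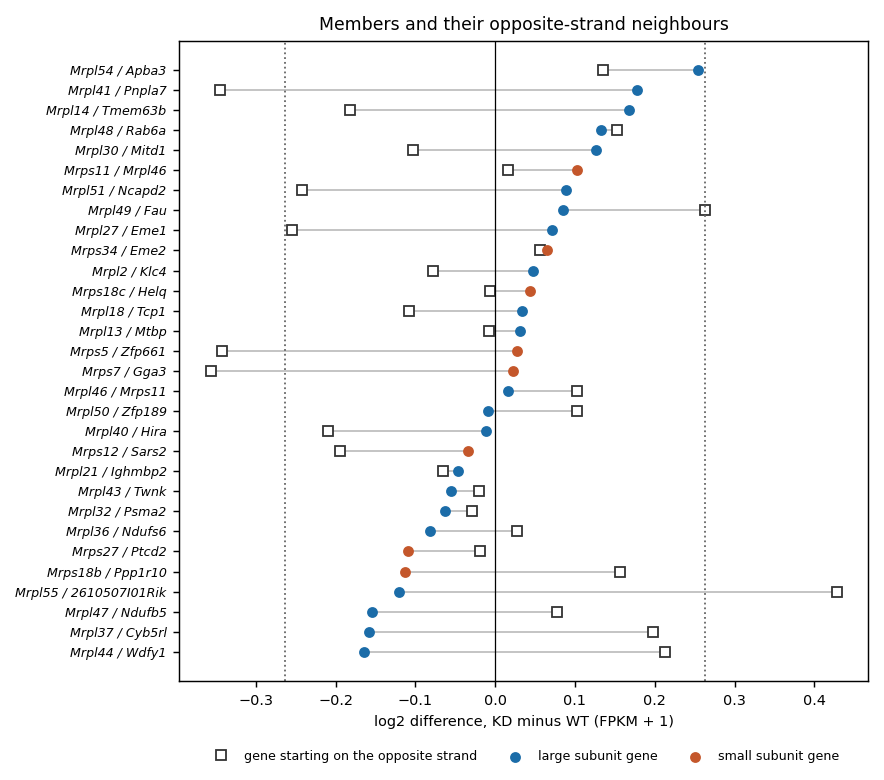
Log2 difference, KD minus WT, of 30 members (filled circles, coloured by subunit) and of the gene that starts on the opposite strand within 1000 bases (open squares), 1 pair per row. The circles lie between the dotted lines at 1.2-fold, while 4 squares lie outside them and that of Fau, beside Mrpl49, lies at the upper line at 0.26.

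In 1 pair both genes are members. Mrpl46 and Mrps11 lie head to head on chromosome 7, from 78775341 to 78783089 and from 78783131 to 78792988 in the table, so that a gene of each subunit starts from the same place. In GENCODE their outermost starts overlap, so some reads there could come from either. Mrpl46 had 90.8 FPKM in WT against 91.8 FPKM in KD, and Mrps11 had 52.0 and 55.9 FPKM. The 29 bases between the table's loci that lie in no annotated exon, chr7:78783090-78783118 in RefSeq's GRCm38.p6, are shown on the strand of Mrps11 because they are shared by both promoters.
Mrps11: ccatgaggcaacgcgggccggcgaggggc

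Promoter windows of 300 bases, 250 before and 50 after the start, were matched in RefSeq (GRCm38.p6) for 67 of the 76 members. They were searched on both strands for the letters of YY1, ETS factors and NRF1, which are known for mitochondrial genes, and for other promoter motifs. The YY1 letters AAGATGGCG were found in 8 member windows, 11.9%, against 3.51% of 8065 windows of genes at a mean of at least 1 FPKM and 4.08% in the level range. The ETS letters CCGGAAGT, to which GABPA binds, were in 11 windows, 16.4%, against 9.08% of all and 11.8% in the level range. The core of the NRF1 motif, GCATGCGC, was in 8 windows, 11.9%, against 5.96% of all and 6.84% in the level range. The shares below are again set against all windows. The SP1 letters GGGCGG were in 33 windows, 49.3%, against 67.8%. CCAAT was in 40.3% against 39.4%, the E-box letters CACGTG in 7.46% against 10.6%, and TATAAA in 5.97% against 6.76%. The T-box letters AGGTGTGA were in 0 of the 67 windows and in 0.670% of all windows. These motifs can overlap each other. A match is a description of the letters, not of a bound site.

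The 8 windows with the YY1 letters are shown as 30 bases around the match, which is in capitals, because this motif had the largest excess over the other genes. Each is read 5′ to 3′ on the strand of its gene, so that the reverse complement CGCCATCTT marks a match on the other strand.
Mrpl35, chr6:71823742-71823771, minus strand: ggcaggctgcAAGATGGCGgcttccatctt
Mrpl36, chr13:73330968-73330997, plus strand: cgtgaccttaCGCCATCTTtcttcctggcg
Mrpl37, chr4:107066821-107066850, minus strand: tgcacgggcaAAGATGGCGgcgtccaggta
Mrpl42, chr10:95501903-95501932, minus strand: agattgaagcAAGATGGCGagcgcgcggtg
Mrps11, chr7:78783013-78783042, plus strand: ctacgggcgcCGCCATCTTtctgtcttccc
Mrps18a, chr17:46111005-46111034, plus strand: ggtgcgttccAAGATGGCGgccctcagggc
Mrps24, chr11:5707652-5707681, minus strand: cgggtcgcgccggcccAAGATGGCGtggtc
Mrps27, chr13:99344790-99344819, plus strand: ggtgcgctccAAGATGGCGgctcccatggt

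In 6 of these the letters lie within 50 bases after the start, on the strand of the gene. The letters hold ATG, and whether this is the start codon of these 6 genes was not checked. In Mrpl36 and Mrps11 the letters lie before the start, and the match of Mrps11 lies within the locus of Mrpl46. Of the 8 members 3 were higher and 5 lower in KD, with a median log2 difference of -0.05 and a range from -0.16 for Mrpl37 to 0.10 for Mrps11. The 59 members with a window but without the letters had a median of 0.03, with 41 higher. The 11 members with the ETS letters had a median of 0.04 and the other 56 a median of 0.03, while the 8 with the NRF1 core had a median of 0.02 and the other 59 a median of 0.03. All of these members lay within 1.2-fold, and the differences between the sets were not tested.

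Sequence before the start is shown for Mrpl9, the member with the lowest log2 difference, and Mrps15, the small subunit member with the highest. Each stretch is the last 150 bases of the longest run outside annotated exons in the 250 bases before the start. The bases before Mrps18b lie in annotated exons and are left out, and Mrpl54 was not matched. In Mrpl9 the capitals mark the NRF1 core, which here overlaps its own reverse complement, at chr3:94443168-94443317, and in Mrps15 they mark the SP1 letters on the other strand, at chr4:126046775-126046924.
Mrpl9: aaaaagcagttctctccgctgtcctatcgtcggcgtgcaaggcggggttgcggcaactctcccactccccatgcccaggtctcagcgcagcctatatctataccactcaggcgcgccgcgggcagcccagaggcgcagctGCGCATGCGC
Mrps15: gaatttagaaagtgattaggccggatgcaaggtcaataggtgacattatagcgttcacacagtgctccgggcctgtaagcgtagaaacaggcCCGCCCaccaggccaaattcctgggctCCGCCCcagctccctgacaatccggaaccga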

How the data were processed

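RNA-seq of heart ventricles from 3 WT and 3 KD embryos was used, grouped by the sample titles. Per the labels, Smart-Seq2 libraries were made from 10 ng of total RNA with 12 and 9 cycles of PCR. The submitters' processing notes name TopHat, Bowtie2 and Cuffdiff and the build mm10, with no versions. The authors deposited 1 Cuffdiff table, with 1 FPKM value per gene and group, the KD group being headed KO. Its columns of the authors' own comparison (log2 fold change, test statistic, p-value and q-value) were not used. No columns of single embryos were left unused (0), and with 1 value per group no test was made and no SD or interval is given; the depth is unknown.

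Log2 differences were computed with a pseudocount of 1 FPKM over genes at a mean of at least 1 FPKM. Calls were folds of at least 1.2. Starts in the table count from 0 and are given with 1 added. Symbols were matched to GENCODE M21 on GRCm38 (76 of 76 members, 9896 of 11366 genes with an overlapping position), and neighbours listed under an older symbol through RefSeq's synonyms. The members and lists were chosen with earlier results of these data known. Values were named for the 5 highest and 3 lowest members of each subunit in WT, members past 1.2-fold, the Mrps18 genes and Mrpl12, and in each list for the highest gene and at most 2 genes past 1.2-fold in each direction. Other genes were named after their values were seen. Alternatives were pseudocounts of 0.1 and 0, filters of 0 and 5 FPKM, centring, rescaling to the same FPKM sum, folds of 1.1 and 1.5, leaving out overlapping loci and the highest member, and, added after seeing the data, subunits by place. The scripts were tested on simulated data. Python 3.11.15, NumPy 2.4.6, pandas 2.3.3 and Matplotlib 3.10.9 were used.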

Additional observations from a re-analysis of the deposited data

How the results depend on the processing

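No paired analysis was possible because only 1 value per group is given, and for the same reason fits without each replicate were not run. The count past 1.2-fold was 0 in both subunits under each alternative except a threshold of 1.1-fold, which gave 12 large and 3 small subunit members by construction. With both groups rescaled to the same FPKM sum, the median log2 difference was -0.0089 in the large subunit, a change of sign, and 0.0087 in the small subunit, and both summed ratios were 1.02. Without the highest member in WT the summed ratios were 1.03 in both subunits, and without overlapping loci that of the small subunit was 1.05. The other 33 of 42 values matched the reported ones when rounded to 2 decimals, a rule chosen because no spread was available. Some of them could not differ. The filters of 0 and 5 FPKM removed no member, and a count of 0 past 1.2-fold stays 0 at 1.5-fold or with members left out. The match says nothing about the spread between embryos. Differences of this size lie near what the rescaling alone moves, and depth is unknown.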
